A study of Mus musculus with 16 samples.

Results

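The 9 genes described here are Trp53, Mdm2, Mdm4, Ppm1d, Ccng1, Cdkn1a, Cdkn1b, Sesn1 and Rb1, out of 54658 genes listed in the count tables, and 9758 of these genes had an average above 10 CPM, the count of a gene relative to the TMM-scaled size of its library, and were tested. They form the feedback loop around the tumour suppressor p53 together with the genes that hold the cell cycle downstream of it. They were picked by name, after Ccng1 and Cdkn1a had been seen to rise with pyraclostrobin in these same libraries, so the values under pyraclostrobin are given below as a description and carry no test. All 9 were found in the tables and all 9 passed the filter on low counts.

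p53 is a transcription factor that is kept scarce in unstressed cells by Mdm2, a ubiquitin ligase that marks it for degradation, and by Mdm4, a relative of Mdm2 that blocks its activity. When DNA is damaged or the cell is otherwise stressed, p53 is stabilised, mostly at the protein level, and switches on genes that arrest the cycle, such as Cdkn1a, as well as genes that shut it off again, such as Mdm2, Ppm1d and Ccng1. Arrest by p21, the product of Cdkn1a, runs through the retinoblastoma protein Rb1, which then holds back the E2F factors that drive DNA replication genes. In dividing neural progenitors this loop is known as a brake on proliferation and a gate to cell death.

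The cells were C17.2α, a mouse neural line derived from cerebellum that was made to express the thyroid hormone receptor TRα1, and they were grown in serum stripped of thyroid hormone without added T3. They were lysed after 24 h with the solvent DMSO or with a strobilurin, a fungicide that blocks complex III of the mitochondrial respiratory chain. Azoxystrobin and picoxystrobin carry a methoxyacrylate group, pyraclostrobin a methoxycarbamate and trifloxystrobin an oximino acetate. There were 2 DMSO libraries (rep1 and rep2), 1 azoxystrobin library at 1000 nM, and 4 libraries each of picoxystrobin, pyraclostrobin and trifloxystrobin, at 30, 100, 300 and 1000 nM. All groups shared the cell line, the receptor, the medium and the solvent, and no concentration was replicated, so the concentrations of a compound stand in for its replicates. The labels do not say whether the libraries came from separate cultures, and the paper states that they were made in a single experiment. The p-values therefore measure only the spread between these libraries, and nothing here measures variation between experiments.

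Of 16 deposited libraries 15 were distinct, because the one labelled azoxystrobin at 100 nM held the same count for every gene as DMSO rep2, whereas every other pair differed in at least 22355 genes. It was left out, and which of the labels is right cannot be told apart, so values without DMSO rep2 are given where they matter. Total counts ran from 12292390 to 18188099 per library. Markers of neural progenitors were present (Nes 137 to 202 CPM, Sox2 33.7 to 46.2 CPM), while Pax6 stayed at or below 0.126 CPM, and markers of collagen-producing cells were also high (Col1a1 1730 to 4730 CPM). The summed level of the 5 collagen-cell markers was 7450 to 8490 CPM in DMSO, 5200 to 7420 CPM with picoxystrobin, 4050 to 6290 CPM with pyraclostrobin and 6340 to 7550 CPM with trifloxystrobin. The ranges of picoxystrobin and pyraclostrobin thus lay below that of DMSO, as did the azoxystrobin library (6810 CPM). The part of this in the results below was not tested. The markers did not move together with picoxystrobin. Col1a1 and Col1a2 were below both controls in each library. Col3a1 read 2620, 2720, 2940 and 1750 CPM at 30, 100, 300 and 1000 nM, against 2190 and 2580 CPM in DMSO. The change of a gene against DMSO also followed its GC content in the picoxystrobin libraries at 30, 100 and 300 nM (Pearson r across 9725 genes of -0.635, -0.705 and -0.739), but not in the same way at 1000 nM (r = 0.202), and the other libraries lay between -0.392 and -0.0647.

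Windows of 250 bases directly upstream of annotated starts were searched for the p53 half-site, the palindromic consensus of 10 bases that p53 dimers bind, which reads the same on both strands and was matched without a mismatch. RefSeq (GRCm38.p6) gave 11 windows for 8 of the 9 genes, and none for Rb1. A half-site was present in 6 of the 11 windows, those of Trp53, Mdm2, Ccng1, Cdkn1a, Ppm1d and Sesn1, against 7.13% of 32851 promoters of the same length. The Cdkn1a window at chr17:29090729-29090978 held a pair of half-sites within 13 bases of each other, which 0.0639% of all promoters do. The other Cdkn1a window (chr17:29093519-29093768) held 0 half-sites, as did the Sesn1 window at chr10:41810324-41810573. Searched on both strands, the GC box GGGCGG was in 6 of the 11 windows (32.7% of all promoters), TATAAA in 1 (12.4%) and the E-box CACGTG in 0 (6.02%). The TATAAA match was in the Trp53 window and lay on the strand opposite to the gene. The windows of Cdkn1a (chr17:29090729-29090978, plus strand), Ccng1 (chr11:40755287-40755536, minus strand) and Mdm2 (chr10:117710759-117711008, minus strand) are shown because these are the 3 genes that stood over 1.5-fold above DMSO at both high concentrations of pyraclostrobin, and capitals mark the half-sites:
Cdkn1a: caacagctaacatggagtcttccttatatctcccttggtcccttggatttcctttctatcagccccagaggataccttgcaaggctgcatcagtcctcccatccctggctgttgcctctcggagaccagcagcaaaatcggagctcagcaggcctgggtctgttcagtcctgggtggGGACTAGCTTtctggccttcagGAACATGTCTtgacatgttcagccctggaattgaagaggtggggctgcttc
Ccng1: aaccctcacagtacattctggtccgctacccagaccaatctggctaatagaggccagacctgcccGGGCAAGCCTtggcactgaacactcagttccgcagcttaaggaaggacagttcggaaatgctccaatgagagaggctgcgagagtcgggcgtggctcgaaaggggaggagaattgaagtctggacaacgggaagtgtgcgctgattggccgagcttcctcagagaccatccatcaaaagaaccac
Mdm2: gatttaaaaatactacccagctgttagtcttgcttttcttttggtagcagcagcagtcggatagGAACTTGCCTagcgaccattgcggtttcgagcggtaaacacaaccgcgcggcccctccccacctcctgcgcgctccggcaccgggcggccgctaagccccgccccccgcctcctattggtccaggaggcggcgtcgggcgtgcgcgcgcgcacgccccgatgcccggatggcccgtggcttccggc
A match is a run of letters and not a measured binding site, and the well-known p53-responsive promoter of Mdm2 lies inside the gene, outside this window.

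On GRCm38 (GENCODE M21) the feedback genes are Trp53 (chr11:69580359-69591873), Mdm2 (chr10:117688875-117710758), Mdm4 (chr1:132959484-133030561), Ppm1d (chr11:85311244-85347066) and Ccng1 (chr11:40748552-40755311). The arrest genes are Cdkn1a (chr17:29090976-29100727), Cdkn1b (chr6:134920401-134925513), Sesn1 (chr10:41809935-41908424) and Rb1 (chr14:73183673-73325822). All are protein-coding. Of the annotated genes that overlap Cdkn1a, Mdm4 and Sesn1, none exceeded 5.43 CPM.

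In DMSO cells the members differed in level, and the order is given per kb of the longest annotated transcript so that genes can be compared. Ccng1 was the most abundant (104 CPM per kb), followed by Trp53 (76.3) and Mdm2 (59.3), whereas Cdkn1b (26.4), Sesn1 (22.2), Cdkn1a (19.7), Ppm1d (12.8), Mdm4 (12.7) and Rb1 (8.54 CPM per kb) were lower. The mean levels of the 2 DMSO libraries, in CPM not divided by length, were 366 ± 19.2 (SD, n = 2) for Ccng1, 41.0 ± 5.12 for Cdkn1a, 186 ± 5.89 for Mdm2 and 250 ± 23.1 for Trp53. The libraries rep1 and rep2 differed most for Cdkn1a, by 1.19-fold, and only 0.277% of all tested genes differed by more than 1.5-fold between them.

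**Figure D1:**
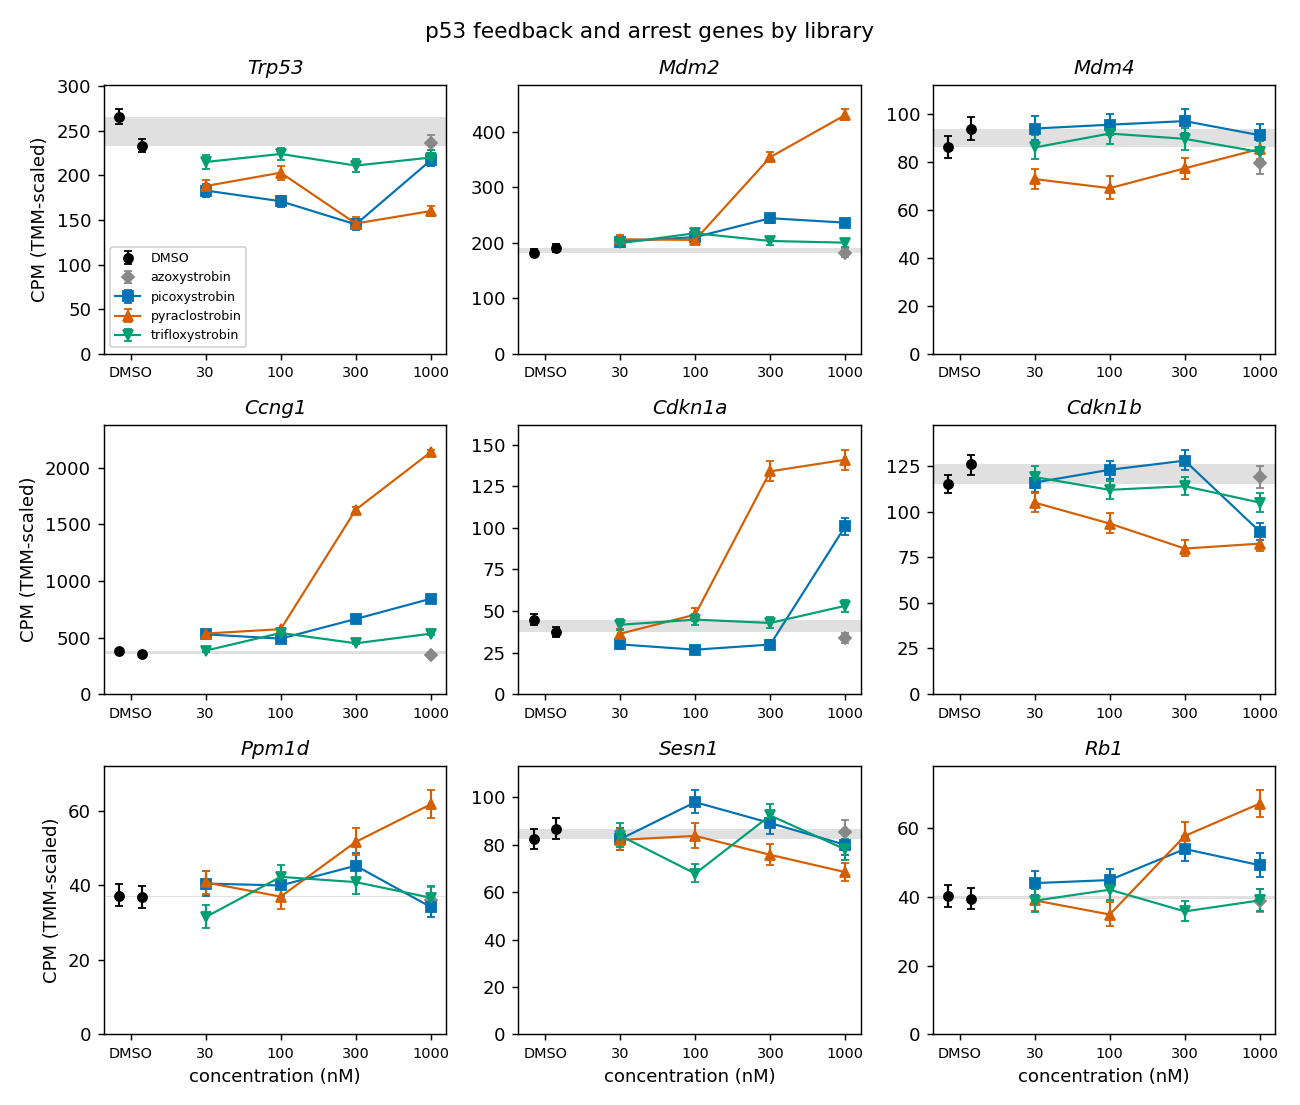
CPM (vertical axes, from 0) of the 9 genes in DMSO and at 4 concentrations in nM (horizontal axes, evenly spaced steps), 1 point per library with its 95% counting interval, and a grey band between the 2 DMSO libraries. Ccng1, Cdkn1a and Mdm2 stood far above the band with pyraclostrobin at 300 and 1000 nM, and Ccng1 and Cdkn1a also with picoxystrobin at 1000 nM.

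The highest levels of Ccng1, Cdkn1a, Mdm2, Ppm1d and Rb1 were all in the library of pyraclostrobin at 1000 nM. Ccng1, cyclin G1, a p53 target that takes part in the shut-off of p53 through Mdm2, read 380 and 352 CPM in DMSO and 535, 574, 1630 and 2140 CPM at 30, 100, 300 and 1000 nM of pyraclostrobin. The level was therefore above both controls at each concentration, 1.57-fold above their mean at 100 nM and 5.85-fold at 1000 nM, with a break of 2.85-fold between 100 and 300 nM. At 300 and at 1000 nM, 1 tested gene in 9758 had a larger fold (0.0102%).

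Cdkn1a, the CDK inhibitor p21, read 44.6 and 37.4 CPM in DMSO and 36.3, 47.8, 134 and 141 CPM with rising pyraclostrobin. The libraries at 30 and 100 nM lay close to the controls, and those at 300 and 1000 nM stood 3.27-fold and 3.44-fold above the DMSO mean. The counting intervals at the last 2 concentrations overlapped (128 to 140 and 135 to 147 CPM). The intervals given for single libraries cover counting error only.

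Mdm2, the ligase that p53 induces against itself, read 182 and 191 CPM in DMSO and 206, 205, 354 and 430 CPM with pyraclostrobin. It followed the same step between 100 and 300 nM as Ccng1 and Cdkn1a, with folds of 1.90 at 300 nM and 2.31 at 1000 nM. Of the other members known as p53 targets, Ppm1d, the phosphatase that reverses the activating phosphorylation of p53, reached 51.7 and 61.8 CPM at 300 and 1000 nM against 37.3 and 36.8 CPM in DMSO. Sesn1, a sestrin that restrains growth signalling, was not higher at any concentration than DMSO rep2 and stood at 68.4 CPM at 1000 nM against 82.3 and 86.6 CPM.

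Trp53 itself lay on the other side of the controls. It read 266 and 233 CPM in DMSO and 188, 203, 146 and 160 CPM with pyraclostrobin, below both controls in every library. Mdm4 also lay below both controls at every concentration, at 72.9, 69.1, 77.4 and 85.5 CPM against 86.2 and 94.0 CPM. Cdkn1b, the CDK inhibitor p27, whose amount is mostly set by protein turnover, read 105, 93.5, 79.8 and 82.5 CPM against 115 and 126 CPM in DMSO. The transcripts of p21 and p27 therefore lay on opposite sides of the controls at 300 and 1000 nM. Rb1, the brake on E2F, was at 38.9 and 34.8 CPM at 30 and 100 nM and at 57.6 and 67.0 CPM at 300 and 1000 nM, against 40.1 and 39.4 CPM in DMSO.

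At both 300 and 1000 nM of pyraclostrobin, 3 of 9 members (Ccng1, Cdkn1a and Mdm2) were over 1.5-fold above the DMSO mean, as were 4.19% of all tested genes, and 1 (Trp53) was over 1.5-fold below it, as were 4.98%. With all 4 libraries above both controls there were 2 members, Ccng1 and Mdm2 (18.8% of all genes), and with all 4 below there were 3, Trp53, Mdm4 and Cdkn1b (22.1%). Taken by concentration, members past 1.5-fold were 0 of 9 at 30 nM (0.246% of all genes above, 0.851% below), Ccng1 alone above at 100 nM (0.195%), 3 above (4.82%) and 2, Trp53 and Cdkn1b, below (5.57%) at 300 nM, and 5, with Ppm1d and Rb1 added, above (7.62%) and Trp53 below (8.42%) at 1000 nM. On the log2 scale, Cdkn1b at 300 nM (-0.59) was only just past the limit. Cdkn1b at 1000 nM (-0.54) and Rb1 at 300 nM (0.53) fell just short of it. The members that were higher at each step of concentration were Ccng1 and Cdkn1a (2 of 9, against 8.90% of all genes). Taken as 1 group against DMSO, log2 differences were 1.74 for Ccng1, 1.13 for Cdkn1a, 0.68 for Mdm2, 0.37 for Ppm1d, 0.32 for Rb1, -0.13 for Sesn1, -0.24 for Mdm4, -0.42 for Cdkn1b and -0.52 for Trp53, and their median was 0.32 against 0 over all tested genes. The slopes on log2 CPM per 10-fold of concentration were 1.46 for Ccng1, 1.46 for Cdkn1a and 0.77 for Mdm2. Without DMSO rep2 the log2 differences were 1.69 for Ccng1, 1.01 for Cdkn1a, 0.71 for Mdm2 and -0.61 for Trp53. These comparisons chose the members and were not tested.

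**Figure D2:**
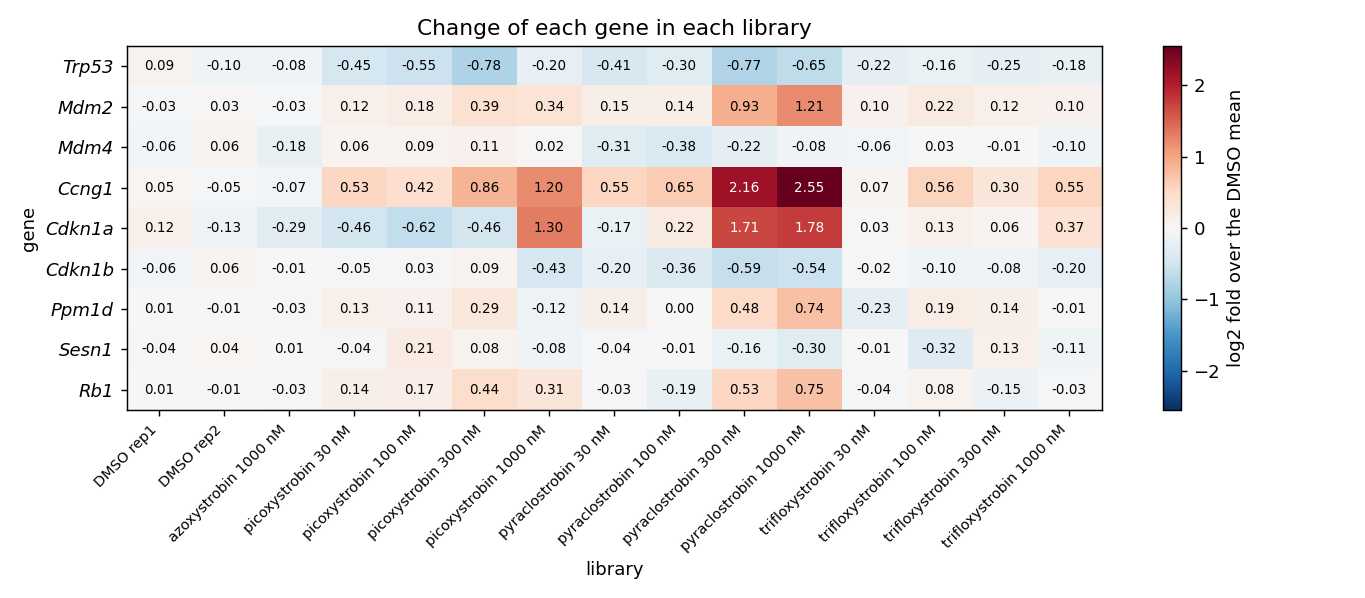
Log2 fold over the mean of the 2 DMSO libraries for each gene (rows) in each of the 15 distinct libraries (columns), with red above and blue below. The red block of Ccng1, Cdkn1a and Mdm2 at 300 and 1000 nM of pyraclostrobin reached 2.55, 1.78 and 1.21, and Trp53 was blue in every picoxystrobin, pyraclostrobin and trifloxystrobin library.

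The rise that prompted the choice of members was that with pyraclostrobin, so picoxystrobin was tested against DMSO, with the same 2 DMSO libraries and with earlier results of these data known. Over its 4 concentrations Ccng1 was higher than both controls in each library, at 528, 490, 664 and 843 CPM against 380 and 352 CPM, and Trp53 was lower in each, at 183, 171, 145 and 217 CPM against 266 and 233 CPM. Neither difference passed the threshold. In the quasi-likelihood test of edgeR, adjusted over 9758 genes by the method of Benjamini and Hochberg, the log2 difference of Ccng1 was 0.79 (SE 0.446, 95% interval -0.17 to 1.74, adjusted p = 0.330), larger than that of all but 3 genes. That of Trp53 was -0.48 (SE 0.142, 95% interval -0.78 to -0.18, edgeR adjusted p = 0.152). The test called 0 of 9 members and 4 genes in all (0.0410%), and at an unadjusted p under 0.05 it gave 1 member, Trp53, and 19.2% of all genes. Without DMSO rep2 the differences were 0.73 for Ccng1 (edgeR adjusted p = 0.564) and -0.57 for Trp53 (edgeR adjusted p = 0.363).

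The value of Trp53 depended on the picoxystrobin library at 1000 nM, which stood nearest to the controls. Without it the log2 difference was -0.59 and the edgeR adjusted p 0.0067, so that Trp53 was called lower. In all, 2660 genes were then called, against 4 of 9758 with every library kept, so the call did not set Trp53 apart. The picoxystrobin libraries that remained were those whose changes followed GC content (r from -0.635 to -0.739), and no GC correction was run on them alone. Over all 14 alternatives the adjusted p of Trp53 ran from 0.00429 to 0.852. With every library kept and the counts corrected for GC content and for the length of the transcript, its log2 difference was -0.35 (edgeR adjusted p = 0.247). The transcript of Trp53 is 53.3% GC. Reads of Trp53 can also be shared with its pseudogene copy Trp53-ps, which was listed at 64.0 to 84.4 CPM, 33.7% of the level of Trp53 in DMSO. The sum of both was 350 and 318 CPM in DMSO and 247, 239, 219 and 292 CPM with picoxystrobin, again below both controls in each library. In whole-culture RNA, fewer cells with a transcript and less of it per cell cannot be told apart.

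Mdm2 was above both controls in each picoxystrobin library, at 202, 210, 244 and 236 CPM, and so was Rb1, at 43.9, 44.8, 53.8 and 49.1 CPM. With Ccng1 this made 3 of 9 members, against 12.1% of all tested genes, and Trp53 was the 1 member with all 4 below (14.6% of all genes). The log2 differences were 0.26 for Mdm2 (95% interval -0.23 to 0.75, edgeR adjusted p = 0.523) and 0.27 for Rb1 (-0.16 to 0.70, edgeR adjusted p = 0.447). With the counts corrected for GC content and transcript length they fell to 0.16 for Mdm2 and 0.12 for Rb1, and that of Ccng1 to 0.63. Counts on Rb1 are less certain than others, since Lpar6 (22.7 to 48.7 CPM) and Rcbtb2 (43.5 to 57.5 CPM) overlap it on the other strand and the strand setting of the counting is not given in the sources used here. The remaining members, Mdm4, Cdkn1b, Ppm1d and Sesn1, had log2 differences from -0.07 to 0.11.

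Cdkn1a separated the concentrations of picoxystrobin. It read 29.9, 26.7 and 29.8 CPM at 30, 100 and 300 nM, each below both DMSO libraries, and 101 CPM at 1000 nM, above both. The library at 1000 nM was 3.38-fold above that at 30 nM and stood 2.46-fold above the DMSO mean, and 0.0205% of tested genes had a larger fold there. Averaged over the concentrations these opposite values gave a log2 difference of only 0.19 (SE 0.558, edgeR adjusted p = 0.862), and -0.51 (edgeR adjusted p = 0.388) without the library at 1000 nM. Cdkn1b read 116, 123 and 128 CPM at 30, 100 and 300 nM, within or near the DMSO values of 115 and 126 CPM, and 89.1 CPM at 1000 nM, below both.

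In the same library at 1000 nM, Mdm2 (236 CPM) and Ppm1d (34.2 CPM) were no higher than at 300 nM (244 and 45.3 CPM), whereas Ccng1 and Cdkn1a were. Past 1.5-fold there were 0 members at 30 nM (0.635% of all genes above, 1.90% below), Cdkn1a below at 100 nM (2.42% of all genes below, 0.820% above), and Ccng1 above (6.37%) and Trp53 below (8.28%) at 300 nM. Over 1.5-fold above DMSO at 1000 nM were Ccng1 and Cdkn1a (2 of 9, against 3.06% of all tested genes) with 0 members below (1.53%), and at both 300 and 1000 nM only Ccng1 (1 of 9, against 0.164%).

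The slope on log10 concentration uses no control library. Within picoxystrobin, the slope of Cdkn1a was 1.14 log2 units per 10-fold of concentration (SE 0.296, 95% interval 0.49 to 1.79, unadjusted p = 0.00258), the largest of 9752 genes, but the adjusted p of edgeR's quasi-likelihood test was 0.521. The slope of Ccng1 was 0.48 (0.04 to 0.92, edgeR adjusted p = 0.521) and that of Cdkn1b -0.21 (-0.49 to 0.07, edgeR adjusted p = 0.527). The test called 0 members and 0 genes (0%) at the adjusted threshold, and at an unadjusted p under 0.05 gave 2 members, Ccng1 and Cdkn1a, and 9.30% of all genes. The slope of Cdkn1a rested on the library at 1000 nM and was -0.01 without it. Without the library at 300 nM it was 1.26 with an edgeR adjusted p of 0.0332. In all, 951 genes were then called, against 0 of 9752 with every library kept. Over all 10 alternatives the adjusted p of the Cdkn1a slope ran from 1.28e-15, with no filter on low counts, to 0.995. With every library kept and the counts corrected for GC content and transcript length, the slope of Cdkn1a was 1.02 (edgeR adjusted p = 0.431).

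With trifloxystrobin no member was over 1.5-fold from the DMSO mean in any library, where 0.0615% to 0.297% of all genes were above and 0.0615% to 1.02% below. Ccng1 read 384, 540, 449 and 534 CPM, above both controls in each library, though at 30 nM by 4 CPM, which is within counting error (interval 374 to 395 CPM). Mdm2, at 199, 217, 203 and 200 CPM, was also above both, and Trp53, at 215, 224, 211 and 220 CPM, was below both. These were 2 members with all 4 libraries above (7.09% of all tested genes) and 1 with all 4 below (8.75%). In edgeR's quasi-likelihood test the log2 difference was 0.38 for Ccng1 (95% interval -0.55 to 1.32, adjusted p = 1), with a larger one in 0.174% of genes, and -0.20 for Trp53 (-0.50 to 0.10, adjusted p = 1).

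Cdkn1a was at 41.7, 44.8, 42.8 and 53.1 CPM with trifloxystrobin, and its value at 1000 nM, 1.29-fold above DMSO, was exceeded in fold by 1.69% of genes. The slope test gave 0.20 for Cdkn1a (95% interval -0.50 to 0.90) and 0.23 for Ccng1 (-0.24 to 0.69), both with an edgeR adjusted p of 1. Against DMSO edgeR called 0 members and 0 genes (0%; 1.27% of genes at an unadjusted p under 0.05), and for the slope again 0 members and 0 genes (0%; 0.513% unadjusted).

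Over the 3 compounds with 4 concentrations, Ccng1 and Mdm2 were above both DMSO libraries in all 12 libraries (2 of 9 members, against 2.82% of tested genes), and Trp53 was below both in all 12 (1 of 9, against 4.49%). These 12 libraries were set against the same 2 controls, and 4 of them chose the members. Azoxystrobin at 1000 nM, a single library, read 347 CPM for Ccng1, 182 CPM for Mdm2, 33.5 CPM for Cdkn1a and 236 CPM for Trp53, with folds of 0.950, 0.976, 0.818 and 0.946 against the DMSO mean. The members ran from -0.29 to 0.01 in log2 difference, none over 1.5-fold (0.113% of all genes above, 0.133% below). Picoxystrobin, which shares the methoxyacrylate group, read 843 CPM for Ccng1 and 101 CPM for Cdkn1a at the same concentration, with 1 library each and no test.

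**Figure D3:**
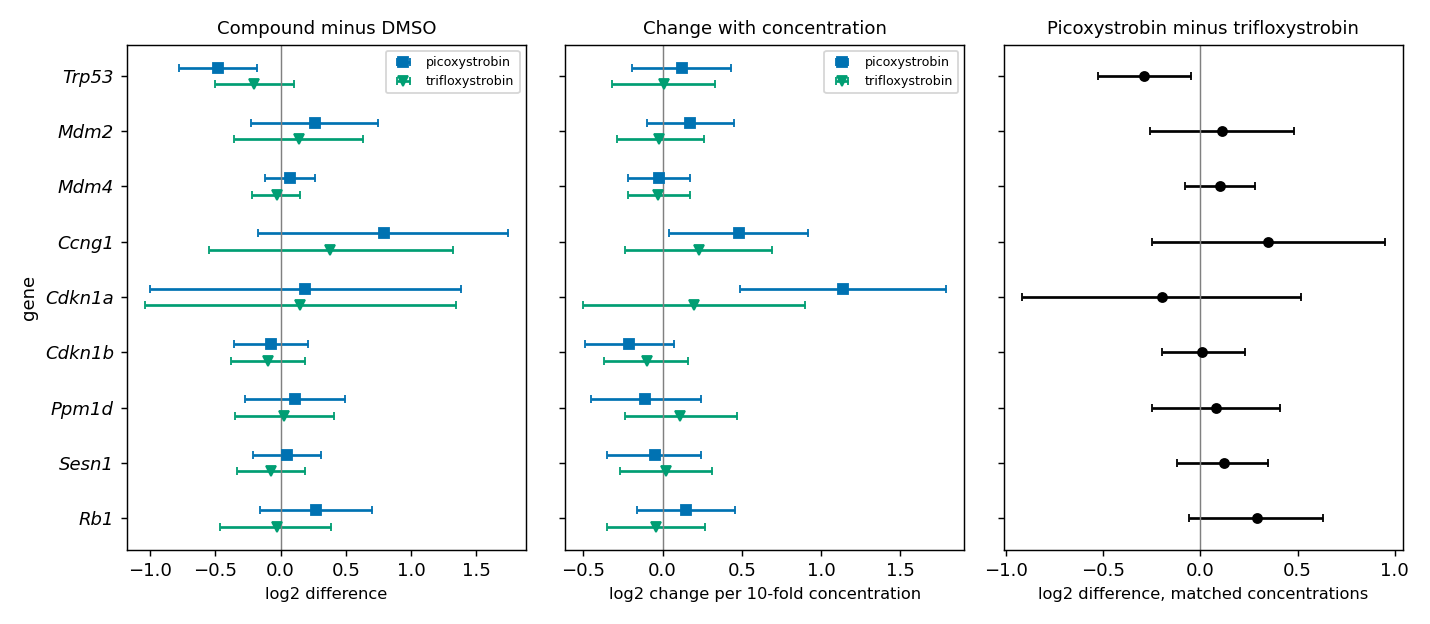
Estimates (points) with 95% intervals (bars) for the 9 genes: log2 difference from DMSO, log2 change per 10-fold of concentration, and log2 difference between picoxystrobin and trifloxystrobin at matched concentrations. Of the intervals drawn, those of Trp53 (picoxystrobin in the left panel, and the right panel) and of Ccng1 and Cdkn1a with picoxystrobin (middle panel) left out 0, and no adjusted p passed the threshold.

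The compounds were then compared with each other at matched concentrations. Of 3 pairs of compounds, only picoxystrobin against trifloxystrobin was tested, because pyraclostrobin had a part in the choice of the genes. Trp53 was lower with the methoxyacrylate picoxystrobin than with the oximino acetate trifloxystrobin at each of 4 concentrations, with a log2 difference of -0.29 (SE 0.109, 95% interval -0.53 to -0.05, unadjusted p = 0.022), which did not pass in edgeR's quasi-likelihood test after adjustment (adjusted p = 0.555). At 1000 nM the levels were 217 and 220 CPM, with counting intervals that overlapped (210 to 225 and 213 to 228 CPM). Without the picoxystrobin library at 1000 nM the log2 difference of Trp53 was -0.41 and passed (edgeR adjusted p = 0.0298). In all, 1299 genes were then called, against 0 of 9752 with every library kept. Over 15 alternatives the adjusted p of Trp53 ran from 0.0298 to 0.989. The difference was 0.35 for Ccng1 (95% interval -0.25 to 0.95, edgeR adjusted p = 0.618), 0.29 for Rb1 (-0.06 to 0.63, adjusted p = 0.556) and -0.20 for Cdkn1a (-0.92 to 0.52, adjusted p = 0.803). These intervals leave room for differences of either direction for Ccng1, Rb1 and Cdkn1a. The test called 0 members and 0 genes (0%; 1 member, Trp53, and 8.63% of genes at an unadjusted p under 0.05).

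The slopes of picoxystrobin and trifloxystrobin differed by 0.95 for Cdkn1a (95% interval -0.01 to 1.90, unadjusted p = 0.0521, edgeR adjusted p = 0.999) and by 0.25 for Ccng1 (-0.39 to 0.89, edgeR adjusted p = 0.999). Here too edgeR called 0 members and 0 genes (0%; 1.08% of genes and 0 members at an unadjusted p under 0.05). Without picoxystrobin at 1000 nM the difference for Cdkn1a was -0.21. The pairs with pyraclostrobin are given side by side only. Cdkn1a was 1.40-fold higher with pyraclostrobin than with picoxystrobin at 1000 nM and 4.49-fold higher at 300 nM, and Ccng1 2.54-fold and 2.46-fold higher.

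Other targets and regulators of p53 were read from lists written with earlier results of these data known. In the list of further arrest and stress targets, 12 of 17 genes passed the filter, and 4 of them (Ercc5, Gtse1, Phlda3 and Trp53inp1) were over 1.5-fold above DMSO at both 300 and 1000 nM of pyraclostrobin. Trp53inp1, a nuclear p53 target that promotes p53 activity, read 196 and 181 CPM in DMSO and 516 and 679 CPM at 300 and 1000 nM. Phlda3, a repressor of Akt signalling, read 114 and 102 CPM in DMSO and 199 and 203 CPM at those concentrations. In the list of death and repair targets, 13 of 22 genes passed the filter and 10 were past that fold. Among them Polk, a translesion DNA polymerase, read 40.3 and 33.7 CPM in DMSO and 87.1 and 104 CPM at 300 and 1000 nM, Eda2r, a death receptor of the TNF family, 96.3 and 85.6 CPM and then 188 and 222 CPM, and Tnfrsf10b, a TRAIL receptor, 27.6 and 23.8 CPM in DMSO and 48.9 CPM at 300 nM. No gene of either list was over 1.5-fold below at both. The background for these counts is again 4.19% above and 4.98% below, and the contrast is the one that chose the members.

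With picoxystrobin, 1 gene of the arrest list, Gadd45a, was over 1.5-fold above DMSO at both high concentrations, with 52.3, 59.6, 68.7 and 78.4 CPM against 36.5 and 40.7 CPM, and its log2 difference was 0.75 (edgeR adjusted p = 0.112). Trp53inp1 and Phlda3 followed Cdkn1a instead. Trp53inp1 stayed at 183, 182 and 193 CPM at 30 to 300 nM and read 364 CPM at 1000 nM, and Phlda3 read 88.6, 88.9, 74.7 and then 182 CPM. At 1000 nM of picoxystrobin, 4 of 12 arrest targets and 5 of 13 death and repair targets were over 1.5-fold above DMSO (3.06% of all genes). At 300 nM of picoxystrobin the counts were 1 of 12 and 2 of 13, against 6.37% of all genes. The median slope was 0.39 over the 12 arrest targets and 0.29 over the 13 death and repair targets, against 0.01 over all 9752 genes. Lists that are not p53 targets had medians of like size, at 0.35 over 5 CDK inhibitors and Rb relatives, 0.26 over 15 cyclins and CDKs and 0.25 over 23 E2F targets and proliferation genes. Some genes of these lists were also over 1.5-fold above DMSO at 1000 nM of picoxystrobin, and others were not. Foxm1, of the E2F list, read 113, 96.8, 97.2 and then 269 CPM, against 164 and 124 CPM in DMSO. Cdkn2d, a CDK inhibitor, read 14.2, 12.8, 13.2 and then 42.7 CPM, against 18.3 and 14.3 CPM. In the slope test edgeR called 0 genes of either p53 target list.

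Of 15 tested regulators of p53, Chek1 and Chek2, checkpoint kinases upstream of it, were over 1.5-fold above DMSO at both high concentrations of pyraclostrobin, and Ep300, an acetyltransferase, and Usp10, a deubiquitinase of p53, were over 1.5-fold below. Chek1 read 44.4 and 52.9 CPM against 21.0 and 19.3 CPM in DMSO. Over all tested genes, 4.19% were above and 4.98% below at both concentrations, and the contrast is again the one that chose the members. The median log2 difference over the 15 was -0.07.

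The cycle genes that Rb1 and the CDK inhibitors restrain were read in the same way. Of 15 cyclins and CDKs, 3 (Ccna2, Ccne1 and Ccne2) were over 1.5-fold above DMSO at both 300 and 1000 nM of pyraclostrobin, and 0 were below (4.19% and 4.98% of all tested genes). Ccne2, a cyclin of the G1/S transition, read 74.7 and 94.1 CPM against 34.0 and 33.4 CPM in DMSO. Of 23 tested E2F targets and proliferation genes, 9 were above and 0 below, among them Rrm2, a subunit of ribonucleotide reductase (193 and 229 CPM against 89.3 and 79.5 CPM), and Mybl2, a transcription factor of cycling cells (16.4 and 19.0 CPM against 9.47 and 7.64 CPM). At 1000 nM alone, 17 of 23 were above, against 7.62% of all genes. Cdkn2d, the CDK inhibitor p19, and Rbl1, a relative of Rb1, were also above at both concentrations (2 of 5 tested genes of that list, against the same 4.19%).

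**Figure D4:**
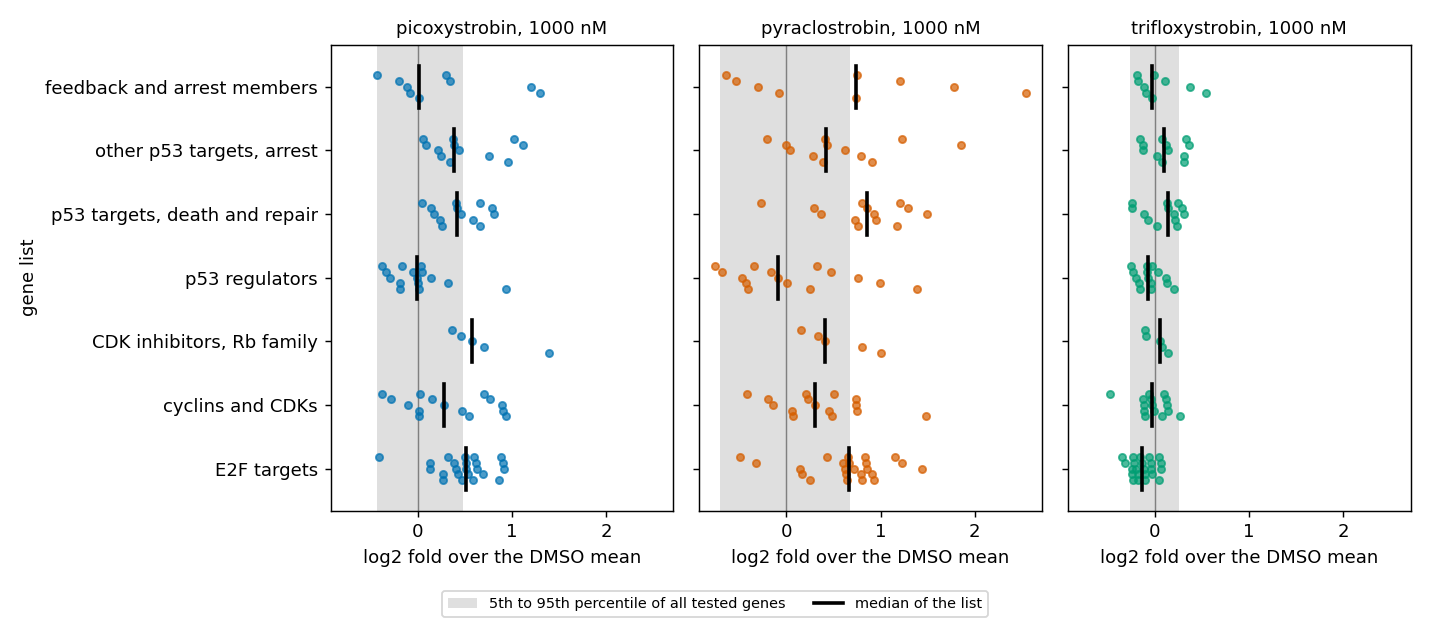
Log2 fold over the DMSO mean (horizontal axes) of each tested gene (points) in 7 gene lists at 1000 nM of picoxystrobin, pyraclostrobin and trifloxystrobin, 1 library each, with the median of each list (black bars) and the range from the 5th to the 95th percentile of 9758 tested genes (grey). With pyraclostrobin the grey range ran from -0.71 to 0.68 and the medians of the members and of the death and repair targets lay to its right, whereas with trifloxystrobin the list medians lay near 0.

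With trifloxystrobin, 0 genes of these lists were over 1.5-fold above or below DMSO at both 300 and 1000 nM (0.0205% and 0.0307% of all genes).

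The levels of the members were also compared across the 15 libraries, which share their controls and cell line, so correlations are given as a description over 15 points. The genes most like Ccng1, of 9758, were Polk (Pearson r of log2 CPM 0.991), Twsg1 (0.979), Ermp1 (0.973), Zfp365 (0.972) and Mdm2 (0.972). Those most like Cdkn1a were Notch3 (0.966), Polh, a translesion polymerase (0.965), Ptp4a3 (0.964), Phlda3 (0.960) and Ankrd13a (0.959). Those most like Mdm2 were Uap1 (0.979), Tmem18 (0.972), Zfp365 (0.972), Ccng1 (0.972) and Abcb10 (0.970). In 11 libraries without pyraclostrobin, Mdm2 and Ccng1 still ran together (r = 0.897), whereas Cdkn1a was less close to Ccng1 (0.465) and to Mdm2 (0.236).

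Cdkn1a and Cdkn1b ran against each other, with r = -0.917 over 15 libraries and -0.924 over the 11 without pyraclostrobin. The libraries with the 3 highest levels of Cdkn1a (141, 134 and 101 CPM) had the 3 lowest levels of Cdkn1b (82.5, 79.8 and 89.1 CPM). The last of these, picoxystrobin at 1000 nM, is among the 11 libraries, and r without it was not calculated. The transcripts of Cdkn1a and Cdkn1b are 54.4% and 43.1% GC, and the part of GC content in these correlations was not tested.

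**Figure D5:**
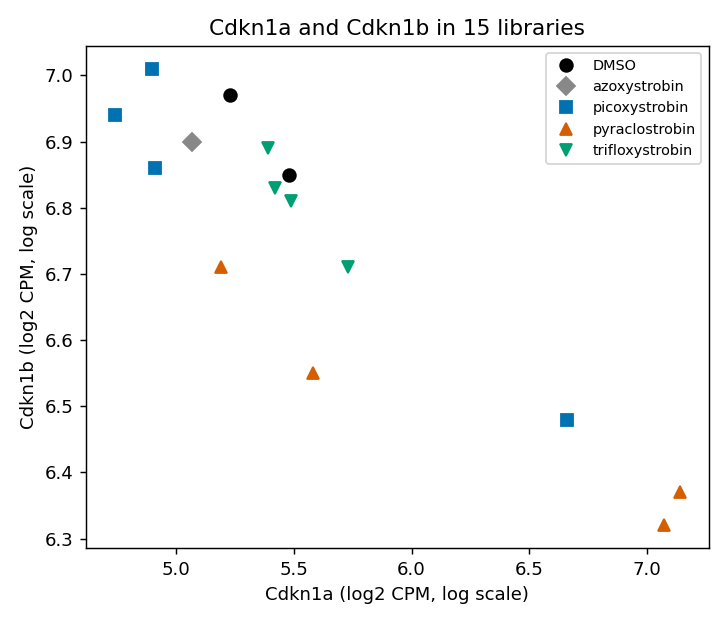
Log2 CPM of Cdkn1a (horizontal axis) against log2 CPM of Cdkn1b (vertical axis), 1 point per library, by compound. The pyraclostrobin libraries at 300 and 1000 nM and the picoxystrobin library at 1000 nM lie at the lower right, with Cdkn1a at 134, 141 and 101 CPM.

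In the order of the levels, neighbouring libraries could be told apart by counting error for Ccng1 more often than for any other member. Of 14 neighbouring pairs, the 95% counting intervals overlapped in 5 for Ccng1, in 11 for Mdm2, in 12 for Cdkn1a and for Trp53, in 13 for Cdkn1b, Ppm1d and Rb1, and in 14 for Mdm4 and Sesn1. From highest to lowest, Mdm4 spanned 1.40-fold and Sesn1 1.44-fold over the 15 libraries, against 6.16-fold for Ccng1 and 5.29-fold for Cdkn1a.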

How the data were processed

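RNA-seq libraries of C17.2α cells were made by the authors from total RNA with the SENSE kit and sequenced from a single end. The submitters' processing notes name Bowtie2 2.3.2.2 and mm10, and the authors counted reads per gene with htseq-count and deposited raw counts, 1 table per library. The counting strand is not given in the sources used here. The 15 distinct libraries were grouped by compound from the labels. Counts were normalised by TMM, genes averaging over 10 CPM were kept, and edgeR 4.0.16 (R 4.3.3) quasi-likelihood tests were adjusted by Benjamini-Hochberg (threshold 0.05) over all kept genes, in 3 models. The first had 1 level per compound (15 libraries, 10 residual degrees of freedom). The second had a slope on log10 concentration per compound, and the third compound plus concentration (12 libraries and 6 residual degrees of freedom each). Standard errors and intervals come from the F statistic and its degrees of freedom. Log2 CPM used a prior count of 2. Members, gene lists and tests were chosen with earlier results of these data known, and the pyraclostrobin and azoxystrobin contrasts were not tested. Named were all members, the 5 genes most correlated with Ccng1, Cdkn1a and Mdm2, and at most 4 genes per list and comparison with the largest difference past the threshold or fold. On simulated counts for the comparison of picoxystrobin with DMSO (9738 genes), 98% of 2-fold and 50% of 1.5-fold changes were called. Whether this holds at the SE of Ccng1 (0.446) or Cdkn1a (0.558) was not tested. Alternatives were DESeq2 1.42.0, RLE size factors, other filters, GC content and length splines, other sample sets and each library left out. Figures used matplotlib 3.10.9. Values of 2 genes outside the members are not reported here.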

Additional observations from a re-analysis of the deposited data

Results flagged for a closer look

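Cdkn1a in the picoxystrobin library at 1000 nM lay far from the other 3 libraries of that compound. Its gap to the nearest of them was 0.914 of the whole range of the 4 on the log2 scale, above the critical value of 0.829 for 4 samples. It read 101 CPM against 26.7 to 29.9 CPM at 30, 100 and 300 nM, and the 4 libraries differ in concentration, so they are not replicates. Of 27 groups of 4 libraries examined, 1 was flagged, and chance alone flags about 1 group in 20.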

How the results depend on the processing

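Each concentration was a single library and the controls were 2, so the spread behind every test mixes the response to concentration with the variation between libraries. No paired analysis was possible because the exposed samples carry no replicate numbers, and the block used between compounds was the concentration. For picoxystrobin against DMSO, 4 genes were called, and 205 with DESeq2, 0 with the filter of filterByExpr, 210 with no filter, 0 with the correction for GC content and length, 9 with all 16 libraries, 2909 with the 15 libraries of the study's heatmap (without picoxystrobin at 1000 nM and with the repeated library), 0 with only picoxystrobin and DMSO, and 0 to 2660 when 1 library was left out (0 without DMSO rep1, DMSO rep2, or picoxystrobin at 30, 100 or 300 nM, and 2660 without picoxystrobin at 1000 nM). Members called were 0, and 2 with no filter (Ccng1 and Trp53), 1 with the libraries of the study's heatmap (Trp53), and 0 to 1 with 1 library left out. For the slope of picoxystrobin, 0 genes and 0 members were called, and 317 genes and 2 members (Ccng1 and Cdkn1a) with no filter, 0 to 951 genes and 0 to 1 members with 1 library left out. For the difference of slopes, 0 became 9 genes and 1 member with no filter. For picoxystrobin against trifloxystrobin, 0 genes were called, and 12 with DESeq2, 28 with no filter, and 0 to 1299 genes and 0 to 1 members with 1 library left out. Trifloxystrobin gave 0 calls against DMSO and for its slope under every alternative run. At a 2-fold limit, members above DMSO at both high concentrations of picoxystrobin fell to 0 from 1, members above with pyraclostrobin to 2 from 3 (Mdm2 was lost), and members below with pyraclostrobin to 0 from 1. Direction turned for Cdkn1a with picoxystrobin against DMSO (-0.51 with the libraries of the study's heatmap, and -0.51 to 0.39 with 1 library left out), for Cdkn1a with picoxystrobin against trifloxystrobin (0.04 with no concentration block, and -0.50 to 0.03 with 1 library left out), and, with 1 library left out, for the slopes of Cdkn1a (-0.01 to 1.96) and Cdkn1b (-0.47 to 0.14) with picoxystrobin, of Ccng1 with trifloxystrobin (-0.01 to 0.30), and for the slope difference of Cdkn1a (-0.21 to 1.77). The cause of these changes was not tested. The described values of 4 members with pyraclostrobin against DMSO kept their sign under every alternative run, from 1.32 to 1.99 for Ccng1, 0.83 to 1.40 for Cdkn1a, 0.46 to 0.83 for Mdm2 and -0.61 to -0.42 for Trp53. Where 1 DMSO library was left out, the lone control was assumed to vary like the libraries of the other groups.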

Other observations

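Trp53cor1, a long non-coding RNA known as a p53 target and transcribed next to Cdkn1a, was looked up after the values of Cdkn1a had been seen. It read 4.64 and 5.23 CPM in DMSO, 4.76, 4.82, 13.8 and 15.1 CPM with pyraclostrobin at 30, 100, 300 and 1000 nM, and 5.09, 4.78, 4.41 and 8.01 CPM with picoxystrobin. The 3 libraries with the highest levels of Trp53cor1 were thus also the 3 with the highest levels of Cdkn1a. With trifloxystrobin it read 4.72, 3.77, 5.39 and 3.63 CPM, and with azoxystrobin at 1000 nM 4.99 CPM. At these low levels it did not pass the filter for the test in its own right, and no test was run.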
